A study of Rattus norvegicus with 10 samples.

Results

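Complement was examined as 9 genes, C1qa, C1qb, C1qc, C1r, C1s, Serping1, C2, Cfb and C3, taken by symbol from a table of 17419 transcripts of rat knee cartilage. Each symbol matched 1 row. The tissue was shaved from the joint surface with a blade, and polyadenylated RNA was sequenced in 10 libraries from rats labelled 5 months old. HC is 2 libraries of untreated wild-type cartilage. OAC is 3 libraries taken 4 weeks after papain and L-cysteine, a protease injection that strips proteoglycan from the joint. SHAM is 3 libraries taken 10 weeks after the same injection, with an AAV-DJ vector for GFP given at 4 weeks, and KT is 2 libraries on the same schedule that received AAV-DJ vectors for Klotho and for TGFBR2 in its place. OAC, SHAM and KT therefore all carry the papain injury, no group received a vector without papain, and SHAM differs from OAC in both time and vector. Whether each library is its own animal is not labelled. The p-values therefore measure spread between libraries, which may be technical.

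Complement is a cascade of plasma proteins that tags targets for clearance. In its classical arm, C1q, a recognition protein built of A, B and C chains, binds immune complexes, dying cells or exposed matrix and switches on its bound proteases C1r and C1s. C1s then cleaves C4 and C2 to form an enzyme that cleaves C3, factor B serves the same end in the alternative arm, and the C1 inhibitor encoded by Serping1 blocks C1r and C1s. Macrophages are the main source of C1q in most tissues, whereas fibroblasts and other stromal cells secrete C1r, C1s and the C1 inhibitor.

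The promoters of a C1q pair and of C1r are shown because C1qa and C1qb kept nearly the same pattern over the libraries and C1r was less near. By distance from the mean C1q pattern, C1r ranked 129 and C1s 399 among 11282 genes. C1qa ranked 2 and C1qb 3, but that mean is built from the C1q chains themselves. Their ranks were thus largely set in advance and cannot be compared with those of C1r and C1s. RefSeq sequences of build GRCr8 matched 4 of the 9 genes, C1qa, C1qb, C1r and C3, and the 250 bases before each start are printed 5′ to 3′ on the strand of the gene. The intervals are chr5:154419934-154420183 for C1qa and chr5:154407828-154408077 for C1qb, both on the minus strand, and chr4:159098763-159099012 on the plus strand for C1r. Capitals mark matches, on either strand, to 4 motifs chosen after the values were seen.
C1qa: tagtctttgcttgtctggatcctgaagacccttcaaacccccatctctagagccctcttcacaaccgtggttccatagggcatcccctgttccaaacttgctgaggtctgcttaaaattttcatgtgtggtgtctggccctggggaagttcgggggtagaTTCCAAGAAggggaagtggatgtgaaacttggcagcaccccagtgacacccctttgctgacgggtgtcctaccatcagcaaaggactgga
C1qb: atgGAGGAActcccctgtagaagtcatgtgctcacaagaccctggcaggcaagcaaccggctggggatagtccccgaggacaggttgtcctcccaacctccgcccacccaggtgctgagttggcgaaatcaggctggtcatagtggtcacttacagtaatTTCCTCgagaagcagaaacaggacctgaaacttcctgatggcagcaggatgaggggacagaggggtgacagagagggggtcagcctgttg
C1r: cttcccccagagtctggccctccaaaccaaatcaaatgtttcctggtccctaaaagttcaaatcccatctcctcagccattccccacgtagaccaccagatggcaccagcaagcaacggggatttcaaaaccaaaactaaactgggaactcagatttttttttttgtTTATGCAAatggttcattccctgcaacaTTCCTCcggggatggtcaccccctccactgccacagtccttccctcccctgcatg
The motif of the STAT factors (GAS, TTCNNNGAA) occurred in C1qa, from 90 to 82 bases before the start, and in 7.67% of 33469 promoters of the same length. The PU.1 core GAGGAA occurred in C1qb from 247 to 242 and from 90 to 85 bases before the start, in C1r from 55 to 50, and in 23.3% of all promoters. The C/EBP letters TTGCNNAA were found in C1r, from 83 to 76 bases before the start, in C3 from 104 to 97, and in 9.22% of all. The interferon-stimulated response element, present in 3.41% of promoters, matched in 0 of the 4 windows. These are letter matches and describe no binding.

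Values are FPKM, read pairs scaled by exon length and library size, so levels can be compared between genes. The step between low values gave a depth of about 52400000 to 70900000 reads per library, and the 9 genes held between 71 reads (Cfb, OAC replicate 1) and 36327 reads (C1s, SHAM replicate 2). Chondrocyte markers were present, with 12 of 12 genes in the table at a summed 13400 to 22500 FPKM in HC, 11300 to 11600 in OAC, 8790 to 11900 in SHAM and 11100 to 13600 in KT. Chad, named after its values were seen, was at 8816 and 14454 FPKM in the HC libraries. Erythroid markers summed higher than these in the papain groups, at 20100 to 35800 FPKM in OAC, 28400 to 38400 in SHAM and 19200 to 20600 in KT. Neutrophil markers also did in OAC (12700 to 16300), so the tissue was not cartilage cells alone. HC replicate 1 stood apart in skeletal muscle markers (22200 FPKM summed, against 309 in HC replicate 2). Run tag 2 in the file header occurs in 2 of 3 disease libraries and in no other group, and cannot be tied to single libraries, so a batch and OAC cannot be told apart in full. In bulk tissue, fewer cells of a type and less RNA per cell cannot be told apart.

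All 9 genes passed the filter of a mean of 0.5 FPKM, and each group's mean was above it. Differences were tested with limma on log2(FPKM + 1) over all 11282 genes that passed, with Benjamini-Hochberg adjustment and a threshold of 0.05. Against HC, 7 of 9 complement genes rose in OAC, where 23.4% of all genes tested were called higher. In SHAM 9 of 9 rose, against 21.0% of genes, and in KT 8 of 9 rose, against 14.3% (5 of 9 without KT replicate 2). From OAC to SHAM 2 of 9 rose, C1s and Cfb, against 0.922% of genes, and 0 fell. Between KT and SHAM limma called 0 of 9, where 0.363% of genes were called higher and 0.683% lower. Before adjustment 5 of the 9 had p below 0.05 there, voom on recovered reads called 0, and the authors' deposited DESeq2 table has 4 with an adjusted p under 0.05. The median log2 difference of the 9 genes was 1.10 in OAC, 1.89 in SHAM and 1.39 in KT against HC, where the median of all genes was 0.14, 0.10 and 0.09. It was 0.85 from OAC to SHAM and -0.37 from SHAM to KT, against -0.02 and -0.04 for all genes. The comparisons share libraries, so their counts are not independent. Markers of blood and marrow cells were also higher against HC. Neutrophil genes rose in 11 of 11 in OAC, 11 in SHAM and 3 in KT, erythroid genes in 8, 9 and 2 of 9, lymphocyte genes in 5, 10 and 4 of 11, and osteoclast genes in 5, 3 and 0 of 6. The erythroid sum was 12500 to 13200 FPKM in HC, 20100 to 35800 in OAC, 28400 to 38400 in SHAM and 19200 to 20600 in KT. The lymphocyte sum was 73.0 to 84.2 FPKM in HC, 188 to 251 in OAC, 175 to 218 in SHAM and 143 to 165 in KT, and the osteoclast sum 206 to 547, 1440 to 4690, 836 to 2270 and 472 to 1710 FPKM. The part of these cells in the complement result was not tested. In either direction, 29.7% of genes were called in OAC against HC, 26.5% in SHAM against HC, 18.2% in KT against HC, 1.16% from OAC to SHAM and 1.05% from SHAM to KT, of which lower calls were 6.27%, 5.48%, 3.95%, 0.239% and 0.683% of genes. The share of calls that were higher depended on scaling: in OAC, SHAM and KT against HC it was 78.9, 79.3 and 78.3%, against 56.1, 57.3 and 57.2% with median-of-ratios scaling, 57.5, 56.4 and 60.4% with quantile normalization and 64.7, 64.3 and 61.5% with voom. Median-of-ratios scaling and voom gave the same counts of the 9 genes in all 5 comparisons. With quantile normalization Serping1 lost its call in KT against HC (limma adjusted p = 0.0836). Among complement genes outside the 9, median-of-ratios scaling and voom each lost Cr2 and Cd93 in OAC against HC. Both also lost C1rl and Cfd in KT against HC.

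**Figure D1:**
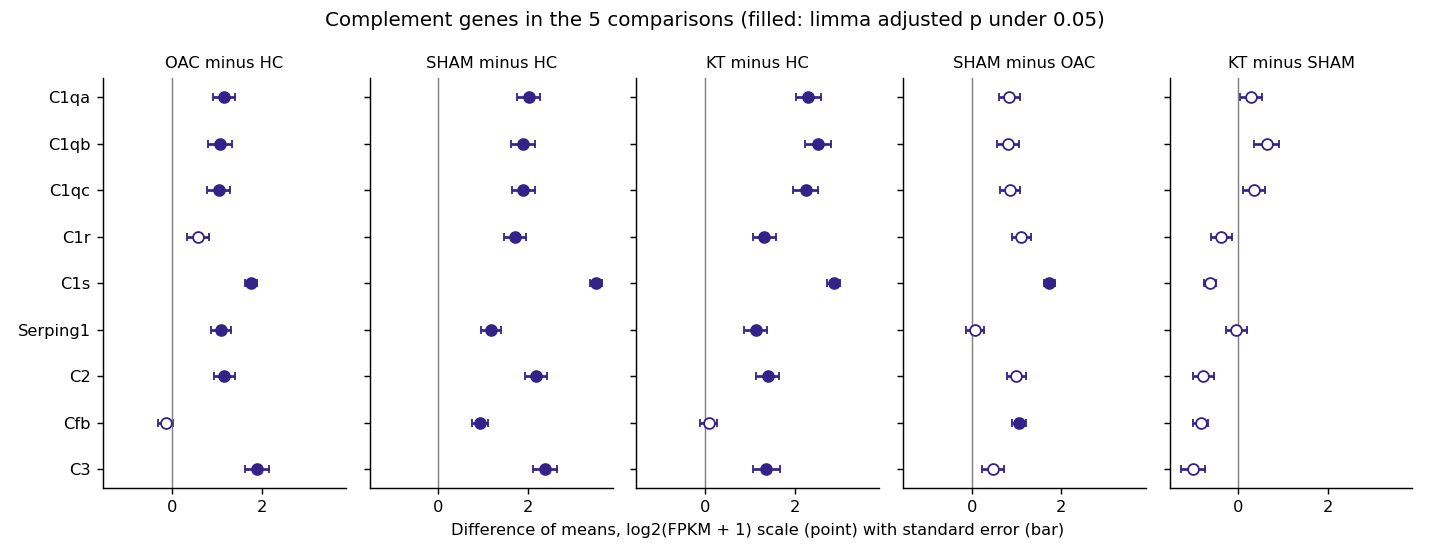
Difference between group means on the log2(FPKM + 1) scale (horizontal axis) for each complement gene in 5 comparisons, with the standard error as a bar and filled points where the limma adjusted p is under 0.05. In KT minus SHAM the C1q genes lie right of 0 and C1r, C1s, Serping1, C2, Cfb and C3 left of it, with no point filled.

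The C1q genes lie together on chromosome 5 in rn6, all on the minus strand, at 155261254 to 155264101 (C1qa, NM_001008515), 155246444 to 155251993 (C1qb, NM_019262) and 155255025 to 155258351 (C1qc, NM_001008524). C1qa, the A chain, was 36.6 and 28.4 FPKM in the HC libraries, 75.1, 90.5 and 59.0 in OAC, 119, 169 and 118 in SHAM, and 132 and 200.3 in KT. Its libraries did not overlap between HC and any papain group, or between OAC and SHAM, while the SHAM and KT ranges did overlap. C1qb, the B chain, was 27.2 and 19.8 FPKM in HC, 50.2, 61.2 and 41.4 in OAC, 73.1, 115 and 83.2 in SHAM, and 108 and 175 in KT. C1qc, the C chain, was 29.8 and 25.0 FPKM in HC, 58.3, 69.4 and 46.9 in OAC, 87.4, 136 and 95.1 in SHAM, and 107 and 165 in KT. For each chain HC was lowest and OAC lay below SHAM with no overlap, the highest library of SHAM was replicate 2, and the highest of all was KT replicate 2. C1qa rose 2.3-fold from HC to OAC as a ratio of mean FPKM (32.5 ± 5.76, SD, n = 2, to 74.9 ± 15.8, SD, n = 3; log2 difference 1.17, SE 0.25, limma adjusted p = 0.00997). C1qb rose 2.17-fold and C1qc 2.13-fold (limma adjusted p = 0.0176 and 0.015), and both lost the call without HC replicate 2 (0.088 and 0.0657) or OAC replicate 2 (0.058 and 0.0508). SHAM stood at 1.77 to 1.82 times OAC for the chains, and none of these differences passed (limma adjusted p = 0.188, 0.261 and 0.186). KT was 5.11, 6.04 and 4.96 times HC for C1qa, C1qb and C1qc, and each rise passed (limma adjusted p = 0.00236, 0.00231 and 0.00242). Against SHAM, the KT log2 differences were 0.29, 0.63 and 0.35 and did not pass (limma adjusted p = 0.633, 0.333 and 0.55).

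The chains kept close proportions in these libraries. The ratio of C1qa to C1qc lay between 1.14 and 1.36 in all 10 libraries, although C1qa itself spanned 28.4 to 200.3 FPKM. The ratio of C1qa to C1qb was 1.34 to 1.62 in HC, OAC and SHAM and 1.22 and 1.14 in the KT libraries, the lowest of the 10, so the B chain was relatively higher there. This ratio was not tested.

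**Figure D2:**
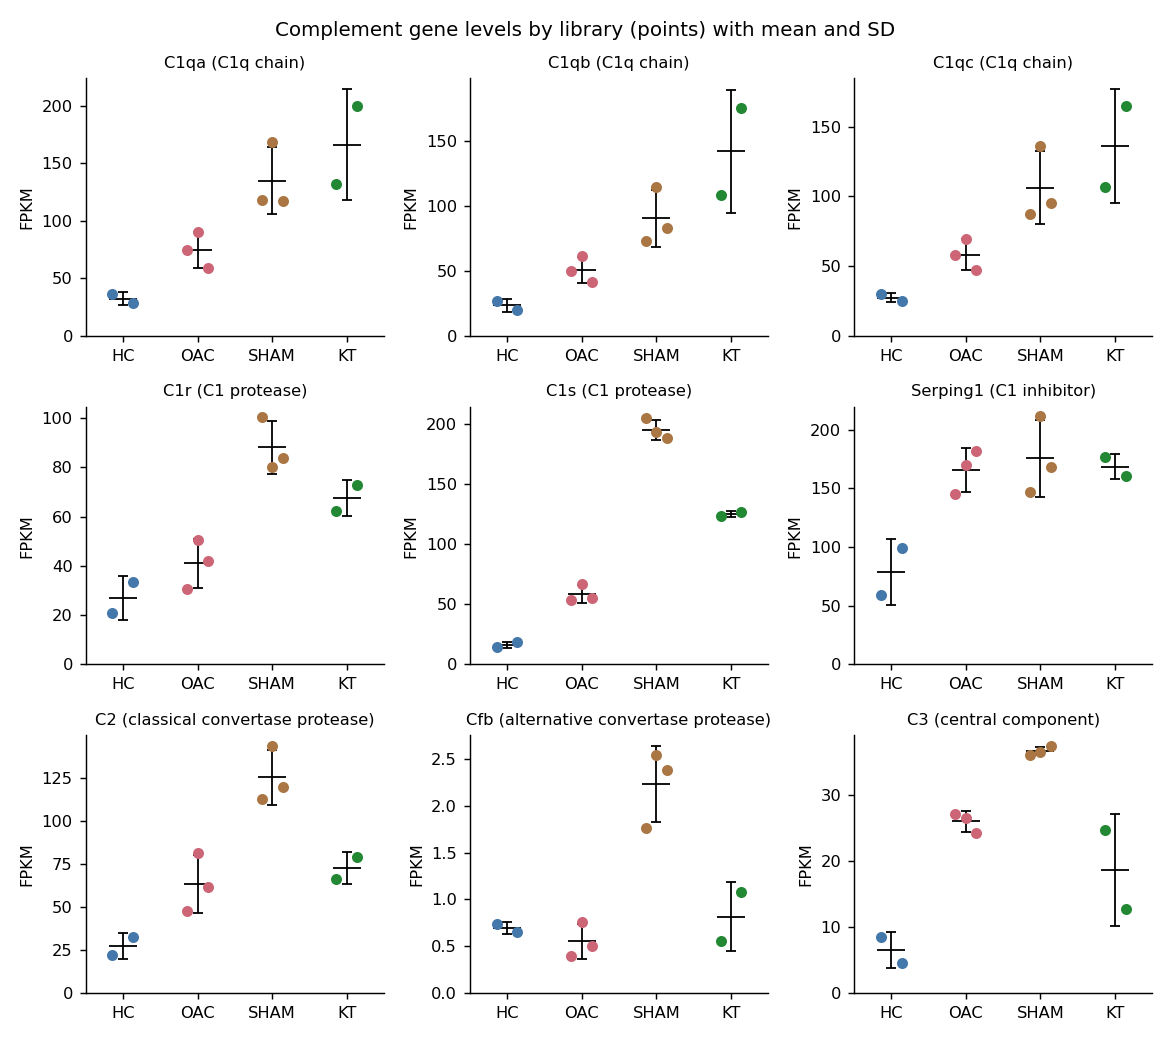
FPKM of the 9 complement genes (vertical axis, from 0) by group, with 1 point per library and the mean and SD as bars. C1q has its highest means in KT, where its libraries overlap those of SHAM, whereas C1r, C1s, C2, Cfb and C3 are highest in SHAM with no overlap with KT.

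C1s, the protease that cleaves C4 and C2 (NM_138900, chromosome 4, 157143592 to 157155596, minus strand), had the largest ratio of SHAM to HC among the 9 genes. It was 14.5 and 18.3 FPKM in HC, 53.4, 67.1 and 54.9 in OAC, 204, 193 and 188 in SHAM, and 124 and 127 in KT. The 4 groups did not overlap, in the order HC, OAC, KT, SHAM. C1s rose 3.56-fold from HC to OAC (log2 difference 1.77, SE 0.13, limma adjusted p = 0.000604). In SHAM it was 11.9 times HC (195 ± 8.38, SD, n = 3, against 16.4 ± 2.66, SD, n = 2; limma adjusted p = 6.24e-06), a rise that included 3.34-fold over OAC (adjusted p = 0.00024). These calls held under all 19 alternative settings, among them leaving out each library. KT was 7.64 times HC (limma adjusted p = 7.74e-05) and 1.56 times lower than SHAM, at a log2 difference of -0.63, SE 0.13. The latter missed the threshold (limma adjusted p = 0.0756), and passed without HC replicate 1 (0.048) or HC replicate 2 (0.0484). The authors' deposited table gives C1s in KT against SHAM a log2 fold change of -0.60 with an adjusted p of 0.000228.

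C1r, the protease that activates C1s (NM_001134555, chromosome 4, 157126060 to 157136817, plus strand), lies 6774 bases from C1s in the opposite orientation. It was 20.7 and 33.3 FPKM in HC, 30.6, 50.4 and 42.0 in OAC, 100.4, 80.3 and 83.7 in SHAM, and 62.4 and 72.8 in KT. HC and OAC overlapped, and SHAM lay above all other libraries. The difference between OAC and HC did not pass (1.52 times, log2 difference 0.59, SE 0.24, limma adjusted p = 0.0959), but did without HC replicate 2 (0.031) or OAC replicate 1 (0.0423). C1r rose 3.26-fold from HC to SHAM (limma adjusted p = 0.00173) and 2.5-fold from HC to KT (0.0122, and 0.0623 without KT replicate 2). SHAM was 2.15 times OAC and narrowly missed (limma adjusted p = 0.0566), with a call when HC replicate 1 (0.0275) or HC replicate 2 (0.0279) was left out. Its log2 difference of -0.37 between KT and SHAM did not pass (limma adjusted p = 0.5).

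C1s and C1r differed in their proportions between groups. The ratio of C1s to C1r was 0.701 and 0.549 in the HC libraries, 1.75, 1.33 and 1.31 in OAC, 2.04, 2.4 and 2.25 in SHAM, and 1.98 and 1.75 in KT. C1r was thus the more abundant of the pair in both HC libraries and C1s in all 8 papain libraries. The proteases are partners in a single complex, and the ratio was described without a test.

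Set against each other within a library, C1q and its proteases stood in different proportions in SHAM and KT. The log2 ratio of the geometric mean of C1qa, C1qb and C1qc to that of C1r and C1s was 0.84 and -0.03 in HC, 0.58, 0.32 and 0.02 in OAC, -0.65, 0.15 and -0.36 in SHAM, and 0.39 and 0.90 in KT. The SHAM libraries lay below both KT libraries, with means of -0.29 ± 0.41 (SD, n = 3) and 0.65 ± 0.36 (SD, n = 2), while HC overlapped each other group. HC replicate 1, the library with muscle markers, gave the second highest ratio. As a score over chosen genes the ratio was given no test. In plain levels, C1q was at a geometric mean of 109 ± 25.4 FPKM in SHAM and 147 ± 45.5 in KT, and C1r with C1s at 131 ± 10.6 and 92.0 ± 5.93.

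**Figure D3:**
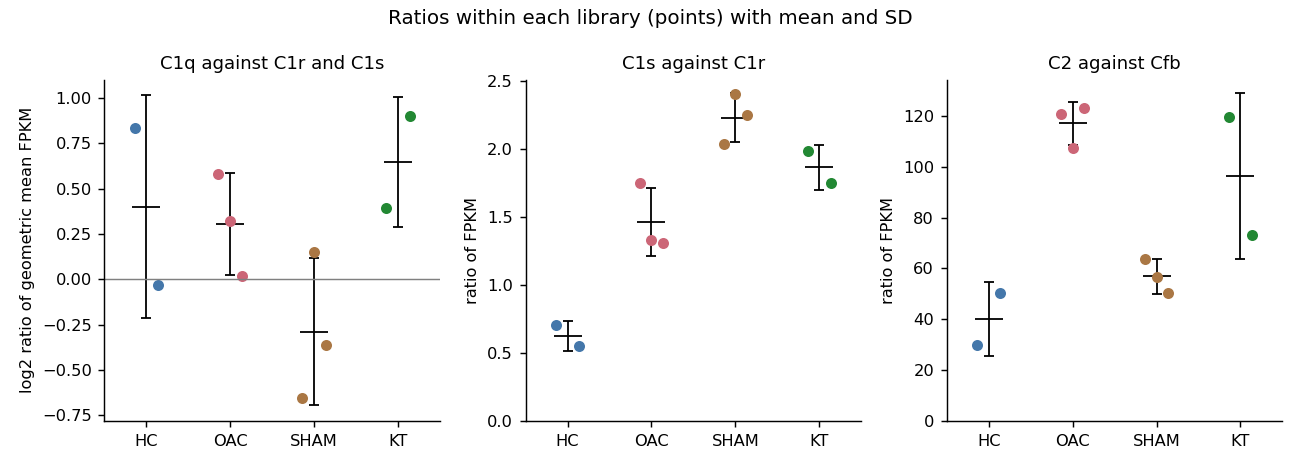
Ratios within each library by group (1 point per library, mean and SD as bars): the log2 ratio of C1q to C1r and C1s, and the plain ratios of C1s to C1r and of C2 to Cfb. The SHAM libraries lie below both KT libraries in the first panel, and HC lies below 1 in the second.

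Markers of the cells that usually make these proteins were read beside them. Of 18 listed macrophage markers, 17 were in the table and 16 were tested, with Marco at 0 in 9 libraries. The macrophage sum was 894 to 1120 FPKM in HC, 2800 to 3880 in OAC, 4920 to 8230 in SHAM and 4240 to 5280 in KT. Lyz2, named after its values were seen, held most of this sum. It was at 676 to 904 FPKM in HC, 2130 to 3236 in OAC, 4104 to 7129 in SHAM and 3437 to 4445 in KT. The sum therefore mainly follows 1 gene. The geometric mean of the 16 tested markers was 27.4 to 36.9 FPKM in SHAM, and the KT libraries lay inside that range (30.8 and 34.98). Against HC 10 of 16 rose in OAC, and 13 each in SHAM, where 1 fell, and in KT. C1q was 2.43 to 3.12 times the geometric mean of these markers in HC and OAC, 3.32 to 3.74 times in SHAM and 3.74 and 5.13 times in KT. The ratio to the macrophage list thus spanned 2.43 to 5.13 while C1q itself spanned 24.1 to 179.6 FPKM. The part of macrophage markers in the C1q result was not tested.

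Fibroblast and synovial lining markers were read beside C1r and C1s in the same way. All 15 listed were in the table and 14 were tested, Col1a2 being listed under 0.1 FPKM in every library. Their sum was 2740 to 4320 FPKM in HC, 4320 to 6610 in OAC, 4950 to 5830 in SHAM and 8410 to 8960 in KT. Against HC 6 of 14 rose in OAC, 3 in SHAM and 8 in KT, where 23.4%, 21.0% and 14.3% of all genes did, and 0 fell. From OAC to SHAM limma called 0 of 14, with 6 at an unadjusted p below 0.05 and a median log2 difference of -0.38. From SHAM to KT 2 rose, Col3a1 and Lum, named after their values were seen. The part of these markers in the C1r and C1s result was not tested. C1r with C1s was 0.52 and 0.514 times the geometric mean of these markers in HC, 0.672, 0.628 and 0.646 in OAC, 2.34, 1.84 and 2.22 in SHAM, and 0.736 and 0.907 in KT. The SHAM libraries stood above the other 7 by this ratio, and the markers themselves were at 56.6 to 67.5 FPKM in SHAM, inside the range of the other groups (33.4 to 119).

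**Figure D4:**
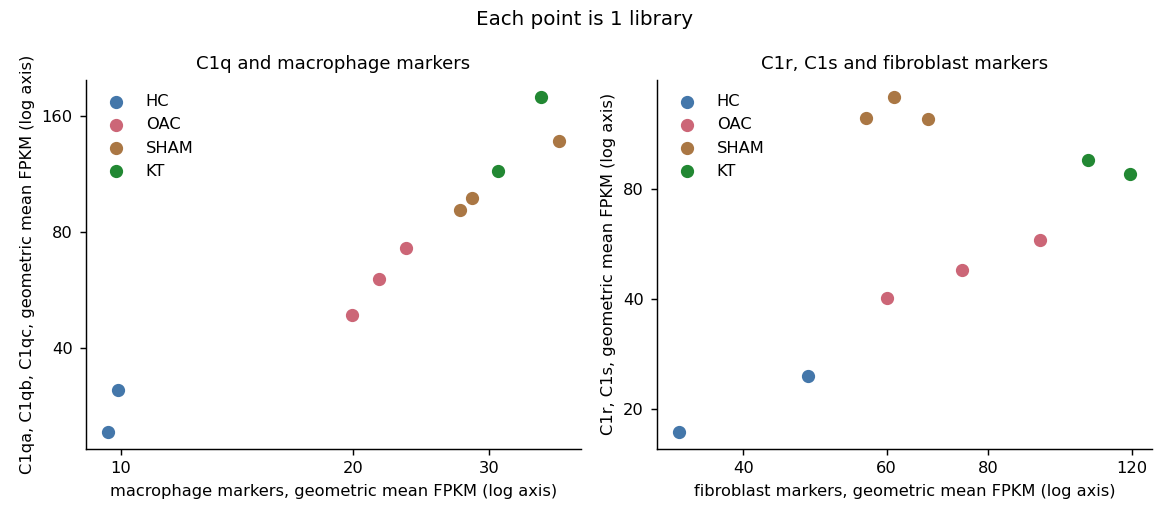
Geometric mean FPKM of C1q against 16 macrophage markers (left) and of C1r and C1s against 14 fibroblast and synovial lining markers (right), both axes logarithmic, 1 point per library. On the left HC is lowest on both axes, and on the right the 3 SHAM libraries are the highest in C1r and C1s (124 to 143 FPKM) while KT is highest in the markers.

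Genes known to respond to interferon-gamma were highest in SHAM as a sum. C1r, C1s, C2, Cfb and C3 were also highest there, with no overlap with another group. Serping1 overlapped between the papain groups, and the C1q genes had their highest means in KT, where their libraries overlapped those of SHAM. The list was chosen with its behaviour in these libraries known. Its 18 members in the table summed to 377 to 408 FPKM in HC, 487 to 631 in OAC, 1820 to 2780 in SHAM and 706 to 1020 in KT. Of 17 tested, 15 rose from OAC to SHAM and 14 fell from SHAM to KT, where 0.922% and 0.683% of all genes did. The part of this response in the complement result was not tested. Of 10 hepatocyte genes, which would mark liver RNA, 8 were listed under 1 FPKM in every library, and Alb, the defining one, was at 0 in 8 libraries and at most 0.038 FPKM. The list summed to 309 to 431 FPKM in HC, 480 to 552 in OAC, 406 to 717 in SHAM and 294 to 453 in KT, and Tf and Serpina1, named after their values were seen, held nearly all of it. Tf, transferrin, rose 5.36-fold from HC to OAC and 4.44-fold to SHAM (limma adjusted p = 0.00368 and 0.0057), and Serpina1 fell 3.52-fold in OAC (0.00811). The part of these genes in the complement result was not tested.

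Serping1, the C1 inhibitor that restrains C1r and C1s (NM_199093, chromosome 3, 72161243 to 72170537, minus strand), followed another course. It was 59.2 and 98.9 FPKM in HC, 145, 170 and 182 in OAC, 147, 211 and 168 in SHAM, and 176 and 161 in KT. Every papain library was above both HC libraries, and the 3 papain groups overlapped. Serping1 rose 2.1-fold from HC to OAC (79.0 ± 28.1, SD, n = 2, to 166 ± 18.5, SD, n = 3; log2 difference 1.10, SE 0.23, limma adjusted p = 0.00866) and 2.22-fold to SHAM (0.00669). Its rise of 2.13-fold in KT (limma adjusted p = 0.0178) was lost without KT replicate 1 (0.0801) or KT replicate 2 (0.0574). From OAC to SHAM and from SHAM to KT the log2 differences were 0.07 and -0.04 (limma adjusted p = 0.985 and 0.943). The ratio of C1s to its inhibitor was 0.245 and 0.185 in HC, 0.367, 0.395 and 0.302 in OAC, 1.39, 0.912 and 1.12 in SHAM, and 0.701 and 0.79 in KT, so that the groups did not overlap.

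C2, the protease that C1s cuts to form the classical convertase (NM_172222, chromosome 20, 4542340 to 4561152, minus strand), was highest in SHAM. It was 22.1 and 32.7 FPKM in HC, 47.5, 81.3 and 61.5 in OAC, 113, 144 and 119.7 in SHAM, and 66.1 and 79.0 in KT. SHAM was above all other libraries, and KT and OAC overlapped. C2 rose 2.32-fold from HC to OAC (limma adjusted p = 0.00808), 4.58-fold to SHAM (0.00058) and 2.65-fold to KT (0.00996, and 0.0531 without KT replicate 2). SHAM was 1.98 times OAC (log2 difference 0.997, SE 0.21) and KT 1.73 times lower than SHAM (-0.78, SE 0.24), and neither passed (limma adjusted p = 0.0851 and 0.214).

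Cfb, factor B of the alternative pathway (NM_212466, chromosome 20, 4536206 to 4542073, minus strand), lies 266 bases from C2 and was the lowest of the 9. It was 0.74 and 0.649 FPKM in HC, 0.394, 0.758 and 0.499 in OAC, 1.77, 2.54 and 2.39 in SHAM, and 0.553 and 1.08 in KT. HC, OAC and KT overlapped and the SHAM libraries lay above them. Between OAC and HC the log2 difference was -0.13 (SE 0.17, limma adjusted p = 0.586), and between KT and HC 0.08 (0.78). Cfb rose 4.05-fold from OAC to SHAM (log2 difference 1.06, SE 0.16, limma adjusted p = 0.0142) and 3.21-fold from HC to SHAM (0.00578). The first call did not hold when OAC replicate 1 (0.0613) or 3 (0.0722), or SHAM replicate 2 (0.0759) or 3 (0.0732), was left out. KT was 2.74 times lower than SHAM and missed the threshold (log2 difference -0.84, SE 0.17, limma adjusted p = 0.0728), while the authors' deposited table lists an adjusted p of 0.0143. C2 was 29.9 and 50.3 times Cfb in HC, 121, 107 and 123 times in OAC, 63.8, 56.5 and 50.1 times in SHAM, and 119.5 and 73.3 times in KT. C2 was thus many times more abundant than its neighbour in all 10 libraries.

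C3, the protein on which all arms converge (NM_016994, chromosome 9, 9721137 to 9747084, plus strand), was 8.45 and 4.55 FPKM in HC, 27.1, 26.6 and 24.2 in OAC, 36.1, 36.5 and 37.3 in SHAM, and 24.6 and 12.6 in KT. HC was lowest, SHAM highest with little spread, and KT replicate 1 lay within the OAC range while KT replicate 2 lay between HC and OAC. C3 rose 4.0-fold from HC to OAC (6.5 ± 2.75, SD, n = 2, to 25.98 ± 1.54, SD, n = 3; limma adjusted p = 0.00208) and 5.63-fold to SHAM (0.000671). Its rise of 2.87-fold in KT over HC (limma adjusted p = 0.0169) was lost without HC replicate 2 (0.0541) or KT replicate 1 (0.0734). SHAM was 1.41 times OAC, and the difference did not pass (limma adjusted p = 0.639). KT was 1.97 times lower than SHAM (log2 difference -1.01, SE 0.27) and did not pass (limma adjusted p = 0.168), but did without KT replicate 1 (log2 difference -1.46, adjusted p = 0.0452). Without KT replicate 2 the log2 difference was -0.55 (adjusted p = 0.83). Neutrophil genes, another source of complement transcripts, summed to 2060 to 2580 FPKM in HC, 12700 to 16300 in OAC, 10300 to 12300 in SHAM and 3690 to 8370 in KT, and their part in the C3 result was not tested.

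Separation of the libraries was counted beside the tests. Against HC, 7 of 9 genes were higher with no overlap in OAC, 9 in SHAM and 8 in KT, where 41.5%, 36.8% and 36.6% of all genes were. From OAC to SHAM 8 of the 9 genes were higher with no overlap, where 7.81% of all genes were, and Serping1 was the exception. From SHAM to KT, C1r, C1s, C2, Cfb and C3 were lower with no overlap, 5 of 9, against 17.4% of all genes, and 0 were higher with no overlap, against 15.0%.

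The rest of the complement system was read from a list of 43 other genes, of which 39 were in the table and 27 were tested. Mbl2 and C8a were listed at 0 in every library. In OAC against HC 11 of 27 rose and 0 fell, where 23.4% of all genes rose, at a median log2 difference of 0.52 against 0.14 for all genes. In SHAM against HC 12 rose and 1 fell, where 21.0% of all genes rose, at a median of 0.64 against 0.10. In KT against HC 11 rose and 0 fell, where 14.3% rose, at a median of 0.69 against 0.09, and 7 were called without HC replicate 2 and 4 without KT replicate 1. From OAC to SHAM 2 of 27 rose, C4a and C4b, where 0.922% of all genes rose. Between KT and SHAM limma and voom each called 0, with 10 of 27 at an unadjusted limma p below 0.05.

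The fourth component, the other substrate of C1s, was low and was the part of the list called from OAC to SHAM. C4a was 0.72 and 1.04 FPKM in HC, 1.79, 5.01 and 3.64 in OAC, 17.2, 13.9 and 9.24 in SHAM, and 9.42 and 9.49 in KT. C4b was 2.72 and 2.77 FPKM in HC, 0.72, 3.5 and 1.38 in OAC, 8.64, 14.7 and 11.3 in SHAM, and 5.13 and 6.19 in KT. KT lay above HC and OAC for each. SHAM and KT overlapped for C4a, and SHAM was above KT for C4b. C4a rose 3.87-fold and C4b 6.17-fold from OAC to SHAM (limma adjusted p = 0.0262 and 0.0133). C4a lost this call without OAC replicate 1 or 3, SHAM replicate 1 or 2, or either KT library (adjusted p up to 0.125), and C4b without OAC replicate 3, SHAM replicate 2 or SHAM replicate 3 (up to 0.0684). The 2 genes are near-identical copies, and how reads were divided between them is uncertain.

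Of 9 complement receptors 5 rose in OAC against HC, as did Cfd and Cfp, the 2 alternative pathway genes tested. Itgam and Itgb2, the chains of complement receptor 3 on neutrophils and macrophages, rose 4.4-fold and 3.15-fold from HC to OAC (limma adjusted p = 0.00205 and 0.00306). C5ar1, the receptor of the C5a fragment, rose 3.14-fold (0.00562), Cfd, factor D, 3.16-fold (0.00175), and Cfp, properdin, 2.64-fold (0.00607). C1rl, a C1r-like protease, rose 3.28-fold (0.00296) and Fcna, a ficolin of the lectin arm, 3-fold (0.00486). These 7 genes were also called higher in SHAM against HC, at 2.69-fold for Cfp to 5.32-fold for Itgam. Cr2, Cd93 and Ptx3 were called in OAC as well (limma adjusted p = 0.0362, 0.0342 and 0.0147), but not without HC replicate 2 (0.126, 0.139 and 0.0546). Cr2 also lost the call without HC replicate 1, OAC replicate 1 or 3, or SHAM replicate 3, Cd93 without HC replicate 1 or OAC replicate 2 or 3, and Ptx3 without OAC replicate 2. Cr2 and Cd93 lost it too with median-of-ratios scaling, quantile normalization or voom. All of Cr2, Cd93 and Ptx3 lost it with array weights or with the replicate number as a block. Among the receptors not called in OAC, C3ar1, which binds the C3a fragment, was 1.8 and 1.09 FPKM in HC, 2.94, 2.81 and 1.8 in OAC, 4.12, 6.74 and 6.98 in SHAM, and 5.81 and 6.9 in KT, and rose 4.11-fold from HC to SHAM (limma adjusted p = 0.00272). C6, of the membrane attack complex, rose 2.28-fold in SHAM and 3.39-fold in KT against HC (limma adjusted p = 0.00779 and 0.00397).

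Vsig4, the complement receptor of resident macrophages, had its highest values in KT. It was 13.7 and 4.98 FPKM in HC, 5.1, 9.38 and 6.4 in OAC, 8.26, 20.7 and 4.23 in SHAM, and 39.6 and 111 in KT. Both KT libraries lay above the other 8, and KT replicate 2, the library with most C1q, was the higher. Its rise of 8.04-fold over HC passed (limma adjusted p = 0.0273), but not without HC replicate 2 (0.0984) or KT replicate 2 (0.137), and its difference from SHAM did not pass (0.12).

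Regulators that protect host surfaces were read from the same list. Serping1, the regulator described above, is not in it and was called higher in OAC, SHAM and KT against HC. Clu, clusterin, was abundant, at 1075 to 2161 FPKM over the 10 libraries. In either direction, 29.7% of all genes were called in OAC, 26.5% in SHAM and 18.2% in KT against HC. Of 2 fluid-phase and 5 membrane regulators limma called 0 in OAC and in KT against HC, with 0 and 1 at an unadjusted p below 0.05. In SHAM 1 fell, Susd4 (limma adjusted p = 0.0467), at 4.0 FPKM in HC replicate 1, 0.903 in HC replicate 2 and 0.299, 0.298 and 0.728 in SHAM, values given after they were seen. Without HC replicate 1 Susd4 was not called (limma adjusted p = 0.233), nor with any other single library left out except HC replicate 2.

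**Figure D5:**
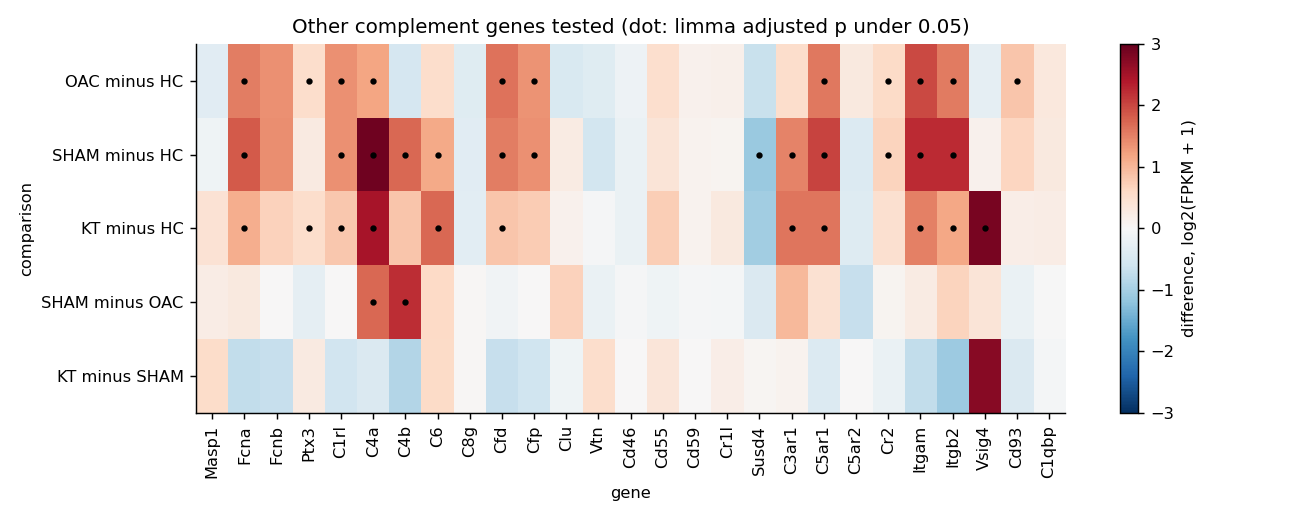
Log2(FPKM + 1) difference (colour) of the 27 other complement genes tested (columns) in 5 comparisons (rows), with a dot where the limma adjusted p is under 0.05. Most dots lie in the comparisons against HC, C4a and C4b hold the 2 dots in SHAM minus OAC, and KT minus SHAM has 0.

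Genes with the nearest pattern were sought by the root mean square difference of centred log2(FPKM + 1) values over the 10 libraries. Nearest to the mean of the C1q chains, whose own spread was 0.865, were Cd300le (0.18), Ctss (0.201), Clec4a3 (0.205), Clec4a1 (0.215), Aif1 (0.226) and Arl11 (0.242). Ctss, the protease cathepsin S, was at 32.4 ± 4.99 FPKM in HC, 62.9 ± 10.5 in OAC, 161 ± 53.7 in SHAM and 179 ± 69.8 in KT. Nearest to the mean of C1r and C1s, whose spread was 0.97, were C4a (0.276), Fcgr1a (0.308), Aif1 (0.321), Tlr2 (0.331), Fabp5 (0.335) and Ms4a7 (0.337). Fcgr1a, an Fc receptor of macrophages, was at 7.16 ± 1.44 FPKM in HC, 17.7 ± 2.24 in OAC, 41.8 ± 6.91 in SHAM and 26.02 ± 2.25 in KT. Aif1 and Ms4a7 are on the macrophage list and 0 of the 6 on the fibroblast list. C2, at 0.315, was nearer to that mean than C1r or C1s themselves, which lie at 0.332 each, equal because the mean is of the pair. C1qa stood at 0.428, Cfb at 0.723, C3 at 0.652 and Serping1 at 0.651.

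The authors' deposited table, made with DESeq2, gave the 9 genes the same directions in the 4 pairs of groups it holds, and lists more of them under an adjusted p of 0.05 between late and early disease. Of the 9, the authors' deposited table has 7 between HC and OAC, 9 between HC and SHAM, 8 between OAC and SHAM, with Serping1 the exception, and 4 between KT and SHAM. The 4 were C1s, C2, Cfb and C3, at log2 fold changes of KT over SHAM of -0.60, -0.74, -1.40 and -0.96. In the authors' deposited table C1qa, C1qb and C1qc were at 0.35, 0.71 and 0.41 in that pair, with adjusted p of 0.601, 0.176 and 0.54.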

How the data were processed

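Stranded paired-end libraries were made with a TruSeq kit, per the labels' protocols. Per the submitters' processing notes the tools were FastQC 0.11.2, STAR 2.5.3a, HOMER and DESeq2 1.18.1 with build rn6. The authors deposited FPKM for 17419 RefSeq transcripts, 1 per gene, and, per the file headers, counted reads over exons with the strand option set to minus. Their deposited comparison table gives log2 fold changes and p-values for 4 pairs of groups.

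Here, log2(FPKM + 1) was tested with limma 3.58.1 (R 4.3.3, intensity trend) in 1 fit of the 10 libraries, for the 11282 genes whose mean reached 0.5 FPKM. This scale understates changes of low genes. Ratios are of mean FPKM. Reads were recovered from the step of FPKM times exon length (100% of values under 1000 reads in transcripts under 3000 bases within 0.15 of a whole read). The fit was tested on simulated data. The members and lists were chosen with earlier results of these data known. Named genes were the 9 members, other complement genes called in any comparison (values for the 12 with the largest difference), the 6 nearest profiles to C1q and to C1r with C1s, and up to 4 markers a list. Alternatives covered the pseudocount (0.1), filters, scaling, voom, weights, the replicate number and each library left out. A gene of the complement list is not reported here.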

Additional observations from a re-analysis of the deposited data

How the results depend on the processing

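Of 26 member calls 16 held under all 19 alternatives and 10 were lost under at least 1. Array weights gave 4 members called in SHAM minus OAC (2 as reported) and 4 in KT minus HC (8), and 7, 5 and 3 other complement genes in OAC minus HC (11), SHAM minus OAC (2) and KT minus HC (11). Fitting only the compared groups gave 4 members in SHAM minus OAC and 1 in KT minus HC, with 1 and 1 other complement genes. Without a filter 1 other gene was called in SHAM minus OAC. The cause of these differences was not tested. The fits of 2 groups also hold fewer libraries, and the part of that was not tested either.

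With each library left out, members called ranged from 5 to 8 in OAC minus HC, 1 to 3 in SHAM minus OAC, 9 to 9 in SHAM minus HC, 0 to 1 in KT minus SHAM and 5 to 8 in KT minus HC. Other complement genes called ranged from 8 to 13, 0 to 2, 11 to 14, 0 to 0 and 4 to 11. The mean log2 ratio of C1q to C1r and C1s ranged from -0.03 to 0.84 in HC, 0.17 to 0.45 in OAC, -0.51 to -0.11 in SHAM and 0.39 to 0.90 in KT. Uncalled log2 differences that turned sign ranged from -0.0108 (without KT replicate 2) to 0.5873 for C1qa in KT minus SHAM, from -0.0687 (without SHAM replicate 2; -0.0172 without OAC replicate 1) to 0.1909 for Serping1 in SHAM minus OAC, from -0.1602 to 0.0994 (without SHAM replicate 2; 0.0235 without KT replicate 2) for Serping1 in KT minus SHAM, and from -0.1253 (without KT replicate 2) to 0.2942 for Cfb in KT minus HC.

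Deviations of same-numbered libraries from their group means correlated above 0.1 in 4 of 13 pairs (-0.48 to 0.49). In groups of 2 libraries the deviations are exact opposites, so these pairs are not independent. The count therefore cannot decide whether replicate numbers pair the libraries. With the replicate number as a block, 3 members and 1 other complement gene were called in SHAM minus OAC, C2 being added (limma adjusted p = 0.0168). Scaling by the median of ratios moved the median of all genes in OAC minus HC from 0.14 to -0.02, and the share of higher calls from 78.9 to 56.1%, with 7, 9 and 8 members called against HC in OAC, SHAM and KT. Over all genes, array weights called 1974 in OAC minus HC (3348 as reported), 324 in SHAM minus OAC (131), 1628 in SHAM minus HC (2986) and 493 in KT minus HC (2057). The fits of 2 groups called 2494, 155, 1970 and 10, with 73 in KT minus SHAM (118), and the block 2206, 107, 1951 and 1116, with 80. With 1 library left out the counts were 2163 to 3331, 54 to 163, 1968 to 2969 and 972 to 2205, with 45 to 122 in KT minus SHAM. In SHAM minus OAC array weights gave 67.9% higher calls (79.4%).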
